A study of Drosophila melanogaster with 20 samples.

Results

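RAL819 is an inbred line of the Drosophila Genetic Reference Panel, a set of fly lines founded from wild-caught Drosophila melanogaster and bred to near homozygosity. It is represented by 2 of the 20 libraries and is 1 of the 10 lines. The 2 libraries were taken by their line label: 1 from untreated flies, and 1 from flies frozen immediately after 30 minutes at 35 ± 1 °C. Each library held whole bodies of 10 pooled males, 2 days old and reared at 25 °C. The 9 lines it was compared with were RAL69, RAL93, RAL359, RAL387 and RAL409, classed as beneficial by their preconditioning outcome, and RAL195, RAL304, RAL335 and RAL737, which share the class detrimental with RAL819. All lines were sequenced in the same way, with 1 library for each treatment, so that the line and not the fly is the unit of replication and RAL819 itself has no replicate within a treatment. RAL819 was sequenced to 23.8 M gene counts (1 M is 1e+06) without heat shock and 27.2 M with it. The other libraries held 22.8 to 28.4 M counts untreated and 18.4 to 33.7 M counts after heat shock. RAL409, which the authors left out of their own comparison as an outlier, was kept here.

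Inbred lines of a natural population differ by many sequence variants that each line carries in both copies, and such variants can raise or lower the mRNA of a gene in every tissue and condition, or only in some. The heat shock response is driven by the transcription factor Hsf, which binds the promoters of chaperone genes and switches them on within minutes. Its best known products are the Hsp70 proteins, the small heat shock proteins and Hsp83, which hold or refold damaged proteins. Whole bodies mix all tissues, so a lower level of an mRNA cannot be told apart from fewer cells of the type that makes it.

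Markers of the labelled material were present. Accessory gland and testis transcripts were abundant: Acp26Aa, a seminal fluid protein, stood at 553 and 468 CPM (counts scaled to a common library size of 1e+06) without and with heat shock. The testis tubulin gene betaTub85D stood at 933 and 1160 CPM. The eggshell genes Cp36, Cp38 and Vm26Aa had at most 2 counts in either RAL819 library. The yolk protein gene Yp1 had 10 and 11 counts, or 0.404 and 0.429 CPM, above the highest of the other lines (0.202 and 0.159 CPM), and was too low to be tested. Of the other yolk protein genes on the list, Yp2 stood at 1.13 and 0.429 CPM, against at most 0.609 and 0.714 CPM. Yp3 was detected in every line, at 7.11 and 6.09 CPM in RAL819 against 6.11 to 9.42 CPM and 6.18 to 10.7 CPM. Acp95EF, a further accessory gland marker on the list, was at 0 in all libraries.

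Whether RAL819 differed from the other lines was first described by range. Of 13690 genes tested, 887 lay above every other line in both treatments, or 6.48%, and 746 lay below every other line in both, or 5.45%. The difference was at least 2-fold for 138 of the higher genes and 229 of the lower genes, and the median size over all 1633 genes was 0.543 on the log2 scale. The same count made for each other line ranged from 511 genes in RAL359 to 1872 in RAL409, and RAL819 was next below RAL409. With RAL409 left out, 1891 genes were outside the range of the other lines. The count gives the size of the set and is no test. The deviations of the 2 RAL819 libraries from the other lines were correlated across genes (r = 0.843 over 12792 genes, which are not independent), against 0.567 to 0.834 in the other lines. These are untreated and heat-shocked flies of 1 genotype, so genotype and any handling that the 2 libraries shared cannot be told apart.

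**Figure D1:**
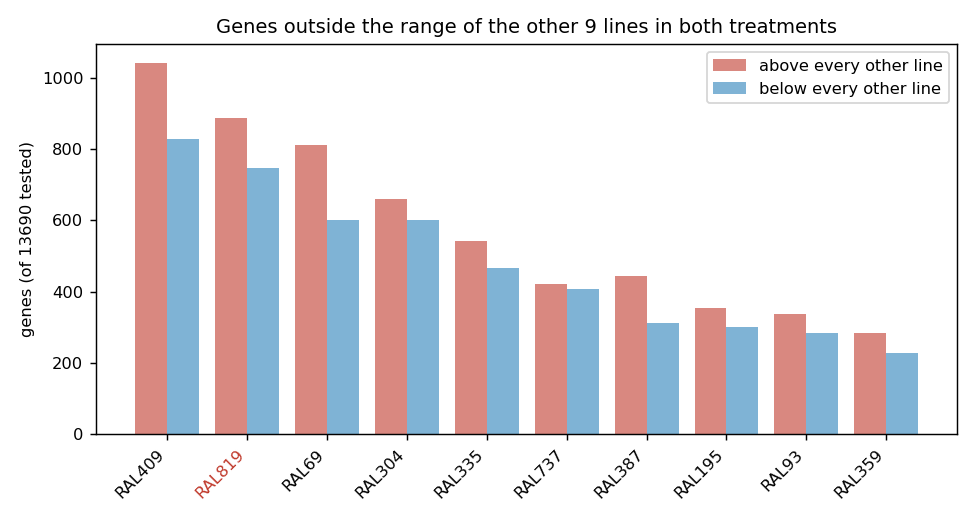
Number of genes (vertical axis) that lay above (red) or below (blue) all 9 other lines in both treatments, for each of the 10 lines (horizontal axis). RAL819 had 887 higher and 746 lower genes, fewer than RAL409 and more than the other 8 lines.

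The outlying genes of RAL819 were spread over all major chromosome arms. They made up 7.18% (higher) and 4.49% (lower) of the genes tested on X, 5.64% and 6.47% on 2L, 6.27% and 5.64% on 2R, 6.78% and 5.05% on 3L, and 6.44% and 5.63% on 3R. The small chromosome 4 had 16 higher and 2 lower genes among 97, or 16.5% and 2.06%. One of the 16 was dati, which encodes a zinc finger transcription factor and was chosen after its values were seen. dati stood at 40.5 and 34.9 CPM in RAL819 against at most 27.4 and 18.3 CPM in any other line. None of the 15 mitochondrially encoded genes tested lay outside the range, although their median difference was 0.51 on the log2 scale.

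A test was then made of the line difference, with treatment as a covariate. In edgeR's quasi-likelihood test over 20 libraries, 225 genes were higher in RAL819, or 1.64% of those tested, and 172 were lower, or 1.26%, at a Benjamini-Hochberg adjusted p under 0.05. The 2 libraries of a line are not independent, so these p-values are too small. With the counts of each line summed, which leaves 1 line against 9, edgeR's quasi-likelihood test passed 9 higher genes (0.0657%) and 16 lower genes (0.117%). Both fits passed 24 genes, 9 higher and 15 lower, and all 24 lay outside the range of the other lines in both treatments. The gene that passed on line sums alone was LpR2, which is taken up with the heat shock response. In limma-voom with the line as a random effect, where the estimated correlation between libraries of a line was 0.603, 94 genes passed, 21 of them among the 24. The 3 that did not pass there were SKIP, Nup205 and CG10764 (adjusted p 0.131, 0.137 and 0.143, limma-voom).

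One of the 9 higher genes was side-VII (FBgn0037736, 3R, 9734012 to 9739979, minus strand, BDGP6.54 annotation), a member of the sidestep family of immunoglobulin-type cell surface proteins. It stood at 70.3 CPM without heat shock and 68.2 CPM with it, against 14.2 to 24.8 CPM (median 18.7) and 13.7 to 28.6 CPM (median 17.5) in the other 9 lines. Both RAL819 libraries stood far above the highest other library. Lying outside the range in both treatments was a condition for every line gene named by rule, here and below, and is no further support. The difference was 1.91 ± 0.16 (log2, SE), or 3.77-fold, with an adjusted p of 5.21e-07 over 20 libraries and 0.00242 on line sums (edgeR's quasi-likelihood test).

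A second cell surface gene of the immunoglobulin type was dpr16 (FBgn0037295, 3R, 5150908 to 5170121, plus strand), one of the dpr genes whose products pair neurons through the DIP proteins. Its level was 27.7 and 27.1 CPM in RAL819, and 7.3 to 11.3 CPM (median 8.53) and 7.73 to 10.8 CPM (median 8.62) in the others. The groups stood well apart, by 1.63 ± 0.11 on the log2 scale or 3.1-fold (adjusted p 2.47e-08 over 20 libraries and 0.00242 on line sums, edgeR). Its relative dpr2, named after its values were seen, was also above the range, at 10.6 and 7.69 CPM against at most 5.24 and 5.4 CPM. It passed over 20 libraries (1.3 on the log2 scale, adjusted p 0.000331) and not on line sums (adjusted p 0.0797, edgeR).

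Another higher gene was Tdc2 (FBgn0050446, 2R, 6684745 to 6689974, minus strand), the neuronal tyrosine decarboxylase that makes tyramine, from which octopamine is made. RAL819 had 12.3 and 8.51 CPM, and the other lines 2.49 to 4.03 CPM (median 3.42) and 2.58 to 4.56 CPM (median 3.57). The difference was 1.60 ± 0.16 (log2, SE), or 3.03-fold (adjusted p 3.93e-06 and 0.00976 on line sums, edgeR). The whole of Tdc2 lies within Rpp25, a gene on the opposite strand that encodes a subunit of RNase P and RNase MRP and was also above the range, at 9.57 and 9.13 CPM against at most 6.74 and 5.44 CPM. Whether the authors' counting used strand is not given in the sources used here, so reads of the 2 genes may not be separated.

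SKIP, which encodes a protein that binds the Shal potassium channel, was 1.78-fold higher (22.1 and 31.9 CPM, against 8.34 to 14.3 CPM and 14.8 to 20.7 CPM). inaE, a diacylglycerol lipase needed for phototransduction in the eye, was 1.98-fold higher, at 106 and 111 CPM against 37.1 to 57.3 CPM and 49.7 to 70.1 CPM. In both genes the 2 RAL819 libraries were above all others, and adjusted p on line sums was 0.03 for SKIP and 0.0176 for inaE (edgeR). SKIP passed on line sums in 4 of 9 fits that left out 1 other line, and not with the length trend described later removed (adjusted p 0.0965, edgeR).

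Of the 4 remaining higher genes, 2 have a known function in every cell. Dronc, the initiator caspase of programmed cell death, stood at 32.7 and 22.6 CPM against 14.3 to 18.8 CPM (median 16.1) and 12 to 17 CPM (median 13.6), a 1.81-fold difference. Nup205, a subunit of the nuclear pore, stood at 21.8 and 23.2 CPM against 8.94 to 15.9 CPM (median 14) and 8.66 to 13 CPM (median 11.2), or 1.83-fold. The ranges did not overlap in either gene, as naming required. On line sums their adjusted p was 0.0385 and 0.048, and when 1 of the other lines was left out at a time Dronc passed in 1 of 9 and Nup205 in 2 of 9 such fits (edgeR).

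CG2444 and lncRNA:CR44895, both on X and both of low abundance, were 3.92-fold and 4.25-fold higher. CG2444 stood at 8.2 and 5.7 CPM against at most 2.59 and 2.93 CPM, and lncRNA:CR44895 at 2.87 and 3.36 CPM against at most 1.06 and 1.08 CPM. On line sums each passed in 3 of 9 fits that left out 1 other line (edgeR). lncRNA:CR44895 overlaps lncRNA:CR44964 on the other strand by 25 bases, and that gene was above the range too.

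Of the 15 lower genes, lncRNA:CR44401 (FBgn0265551, 3R, 20485778 to 20486679, minus strand), a transcript of unknown function, had 0 counts in both RAL819 libraries, while the other lines had 2.6 to 4.81 CPM (median 3.96) without and 2.33 to 6.88 CPM (median 4.08) with heat shock. A count of 0 allows up to 3 counts per library, or 0.121 and 0.117 CPM, so its level was at least 31.0-fold and 36.1-fold lower than the mean of the other lines. This limit covers counting error only. The difference passed both fits (adjusted p 8.13e-07 over 20 libraries and 0.00242 on line sums, edgeR).

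CG13405 (FBgn0035097, 3L, 73945 to 75332, minus strand) was nearly absent. It had 7 and 14 counts in RAL819, or 0.283 and 0.547 CPM, and 34.5 to 47.3 CPM (median 40.3) and 33 to 50.4 CPM (median 40) in the other lines. RAL819 lay far below all 18 other libraries, by 95.9-fold (-6.58 ± 0.26 log2, SE, adjusted p 9.13e-13 over 20 libraries and 3.39e-06 on line sums, edgeR). This was the smallest adjusted p of the comparison.

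Among the lower genes with a known product, nesd encodes a partner of the centralspindlin complex in cell division of the male germ line. It had 2.87 and 2.65 CPM, against 11 to 23.2 CPM (median 18.8) and 12.7 to 24.4 CPM (median 19.2), a 6.53-fold difference. Iris, a gene descended from the envelope gene of an insect retrovirus, had 7.67 and 8.9 CPM, against 26.7 to 58.3 CPM (median 45.3) and 33 to 68.1 CPM (median 43.7), or 5.27-fold. Crg-1, named for its circadian regulation, had 6 and 5 counts in RAL819, or 0.242 and 0.195 CPM, against 1.58 to 3.49 CPM (median 2.69) and 1.32 to 3.18 CPM (median 2.54). The ranges did not overlap in these 3 genes, as naming required. On line sums their adjusted p was 0.0137, 0.0277 and 0.0176 in that order (edgeR). Iris passed in 6 of the 9 fits on line sums that left out 1 other line.

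The other lower genes carry only annotation symbols in the files. CG17928 had 1.86 and 5.47 CPM against 29.8 to 58.9 CPM and 38.9 to 72.6 CPM, or 14-fold lower, and CG10764 had 1.01 CPM (25 counts) untreated and 16 counts after heat shock, against 5.58 to 10.6 CPM and 3.41 to 11.1 CPM, or 9.13-fold lower. CG15483 lies wholly within MRP, on the other strand, and was 6.49-fold lower (6.58 and 5.11 CPM against 31.2 to 44.8 CPM and 34.4 to 44 CPM), while MRP itself differed by 0.07 on the log2 scale and lay inside the range. CG3640 was 5.16-fold lower, CG7878 4.18-fold, CG15347 3.51-fold and CG7214 3.02-fold. In each, RAL819 was below all other lines in both treatments and adjusted p on line sums was at most 0.0154 (edgeR). The last 3 of the 15, named after their values were seen, were CG32428 (2.37-fold), CG10862 (1.84-fold) and lncRNA:CR43956, which had 0 and 1 counts in RAL819.

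**Figure D2:**
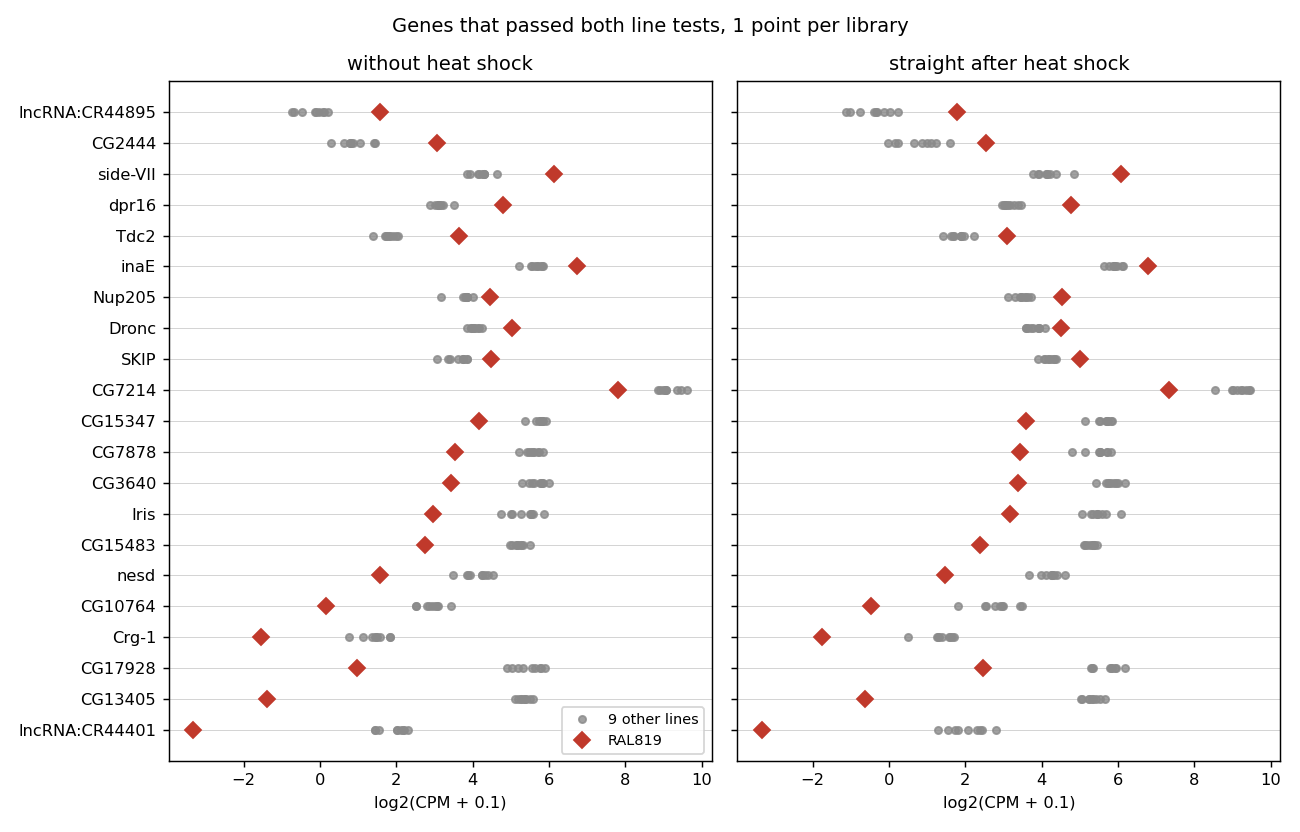
Level of the 21 genes named by rule among the 24 that passed both tests (rows), without heat shock (left) and straight after it (right), as log2(CPM + 0.1). Red diamonds are RAL819 and grey points the 9 other lines, 1 library each. In all 21 genes and both panels RAL819 lies outside the other 9, which the rule for naming required.

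Some outlying genes lay near each other. Counting genes outside the range in the same direction whose starts were within 20000 bases of each other, there were 50 runs of at least 3 genes (27 higher, 23 lower) with 180 genes in all. Of these, 35 runs had 3 genes, 13 had 4, 1 had 5 and 1 had 18. Tested genes inside the range could lie between the members of a run. A lower run of 4 on 2L, from Jon25Bii to CG3792, had 13 tested genes in its span. Overlap of neighbouring genes and its part in the runs was not tested.

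A run of 4 held GstE4, GstE5, GstE6 and GstE8 (2R, 18403248 to 18408955, plus strand), which encode glutathione S-transferases that detoxify plant and insecticide compounds by joining them to glutathione. The run included 4 of the 5 genes tested in its span. GstE8 stood at 40.1 CPM in untreated and 243 CPM in heat-shocked flies, against 9.91 to 27.9 CPM (median 18.2) and 26.6 to 110 CPM (median 42.2). GstE6 stood at 185 and 368 CPM against at most 112 and 253 CPM, and GstE5 at 42.2 and 81.2 CPM against at most 29.2 and 40.9 CPM. RAL819 was highest for each, and the lowest was RAL335, which had 0 counts of GstE5 in both libraries and 0.849 and 1.09 CPM of GstE6.

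GstE8 passed over 20 libraries (1.88 ± 0.36 log2, SE, adjusted p 0.00551) and not on line sums (adjusted p 0.113, edgeR). GstE4, GstE5 and GstE6 passed in neither fit (adjusted p 0.311, 0.31 and 0.341 over 20 libraries). GstE7, the fifth gene of the span, lay above the range without heat shock, at 43.1 CPM against at most 36.6 CPM, and inside it with heat shock, at 370 CPM against 377 CPM in RAL387. GstE7 and GstE8 also rose under heat shock in RAL819, by 8.59-fold and by 2.60 ± 0.52 log2 (adjusted p 0.027 and 0.0202, edgeR). Both rose in the other lines too, by 2.03 and 1.38 (log2), and the difference in response passed for neither. These genes are close copies, so reads may be shared among them.

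**Figure D3:**
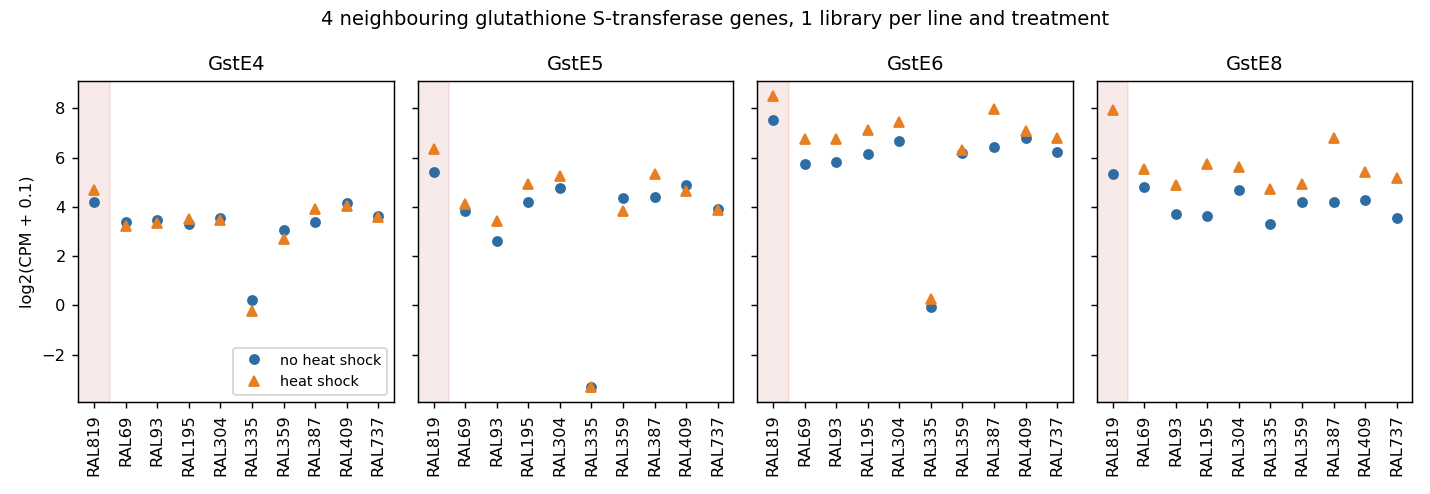
Level of 4 neighbouring GstE genes as log2(CPM + 0.1) in each line, without (blue circles) and with (orange triangles) heat shock, 1 library per point, with RAL819 shaded. RAL819 is highest in every panel for both treatments, and RAL335 has 0 counts of GstE5 in both.

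Over all genes tested, 6.48% lay above and 5.45% below the range, and 1.64% passed as higher and 1.26% as lower over 20 libraries, and the counts of the gene lists that follow are to be read against these shares. Among the 35 glutathione S-transferase genes, 34 were tested, of which 4 lay above the range and 2 below it, and 1 passed over 20 libraries, with a median difference of 0.02 (log2) against -0.02 over all genes tested. Of 79 cytochrome P450 genes tested, 9 lay above and 5 below the range, and 3 higher and 3 lower ones passed over 20 libraries, none of them on line sums. Cyp6a2, a P450 known for its overexpression in insecticide-resistant flies, was 2.85-fold higher at 118 and 80.6 CPM against at most 58.1 and 46.4 CPM (adjusted p 0.00756, edgeR over 20 libraries). Cyp12b2, a mitochondrial P450, was 4.01-fold lower at 12.2 and 10.1 CPM against at least 30.4 CPM in every other library (adjusted p 0.000712, edgeR over 20 libraries). UDP-glycosyltransferases, 31 tested, had 4 above and 3 below the range, beside the same 6.48% and 5.45% of all genes, and Ugt36E1 stood at 2.42 and 1.52 CPM against 7.35 to 25.6 CPM and 6.86 to 26.3 CPM. The P450, transferase and other single genes in this paragraph were named after their values were seen.

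The 18-gene run was made of histone copies on 2L (21418112 to 21523369): 14 His2B and 4 His2A genes, all lower. Its span held 36 tested genes. The replication-dependent histone genes are near-identical copies in a tandem array, and reads of one can be assigned to another. The summed 23 His2B copies, each with few counts, had 14.3 CPM in untreated and 17.3 CPM in heat-shocked flies in RAL819, against 23 to 50.6 CPM (median 36.8) and 22.9 to 56.7 CPM (median 31.1). Summed His2B was below all other lines, while summed His2A (9.29 and 10.2 CPM against 9.09 to 28.3 CPM and 9.54 to 27.4 CPM) was not. The summed 23 His1 copies, none of which passed the filter on low counts, were not low. They had 4.72 and 3.9 CPM, inside the range untreated and above it after heat shock. The other lines had 0.713 to 5.77 CPM (median 1.03) and 0.411 to 3.08 CPM (median 0.902). No His3 or His4 copy passed the filter either. Summed His4, with very few counts, lay below all other lines, at 0.0404 and 0.0781 CPM against at least 0.0761 and 0.206 CPM. Summed His3 did not, at 0.283 and 0.664 CPM against at least 0.283 and 0.24 CPM. Of 47 histone genes tested, 18 lay below the range, against 5.45% of all genes, and none above it, their median difference was -1.04, and 2 passed over 20 libraries and none on line sums. These mRNAs lack a poly(A) tail, and the library kit was one for mRNA.

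The other runs of 4 included phr, Prosalpha1, CG18853 and Prosalpha1R (2R, 7825289 to 7831771), all 4 of the genes tested in the span. phr, which encodes the photolyase that repairs ultraviolet damage with light, was 5.22-fold higher at 29.7 and 28.5 CPM, against at most 15.3 and 15 CPM. It passed over 20 libraries (adjusted p 0.0185) and not on line sums (adjusted p 0.324, edgeR). Prosalpha1 and its near copy Prosalpha1R, which encode the same kind of proteasome subunit, stood at 88.9 and 89.1 CPM as the mean of the RAL819 libraries, against 57.1 and 57 CPM as the mean of the others. Acp1 and CG7214, neighbours on 2L with CG31904 and CG13795, formed a lower run. Acp1 is an adult cuticle gene, caught by name in the seminal fluid list.

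Genes of the nervous system lay above the range more often than below it. Of 18 neuronal genes on the list, 8 lay above the range, against 6.48% of all genes, and none below. The median difference was 0.36 (log2) against -0.02 over all genes tested. elav, an RNA-binding protein found in neurons, stood at 26.6 CPM in untreated and 27.2 CPM in heat-shocked flies, against 8.98 to 22.4 CPM (median 15.9) and 18 to 25.1 CPM (median 20.9). VGlut and VAChT, the vesicle transporters for glutamate and acetylcholine, were 1.42-fold and 1.54-fold higher and passed over 20 libraries (adjusted p 0.0318 and 0.0356) and not on line sums (0.249 and 0.31, edgeR).

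In these libraries longer genes were relatively higher in RAL819: the difference from the other lines rose by 0.11 (log2) for each doubling of exonic length without heat shock and by 0.0755 with it, the first being the steepest upward trend among the 10 untreated libraries. After heat shock RAL359 had a steeper one, 0.137. As an alternative chosen after seeing the data, a length trend was fitted to each of the 20 libraries, against the mean of all, and taken out. For RAL819 it was 0.074 untreated and 0.0926 after heat shock, on the same scale. In that setting 2 of the 18 neuronal genes lay above the range, 1 of them among the 8, and the median difference was 0.23. The part of gene length in the single-gene results was not tested beyond this alternative, under which 28 genes passed on line sums, 23 of them among the 25.

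Of 12 circadian clock genes tested, 2 passed over 20 libraries as higher, against 1.64% of all genes, and neither on line sums (adjusted p 0.199 and 0.31). They were vri, a repressor of Clock transcription (75.3 and 88.1 CPM, against at most 52.3 and 79 CPM), and Pdfr, the receptor of the clock neuropeptide PDF (44.3 and 42.5 CPM, against at most 36.9 and 35.1 CPM). Among 63 chemoreceptor genes tested, 8 lay above and 1 below the range, against 6.48% and 5.45% of all genes. Gr28a, a gustatory receptor, was 11.4-fold higher at 5.49 and 7.46 CPM against 0.178 to 1.64 CPM (median 0.438) and 0.0966 to 1.34 CPM (median 0.254). It passed over 20 libraries (adjusted p 0.00128) and not on line sums (adjusted p 0.105, edgeR). In the eye, Rh7, a rhodopsin, was 2.79-fold higher at 24.4 and 20.5 CPM against at most 12.4 and 12.3 CPM, and retinin, a protein of the corneal lens, 2.91-fold lower at 79.5 and 127 CPM against at least 191 and 235 CPM. Both were named after their values were seen and neither passed on line sums (adjusted p 0.107 and 0.0948, edgeR).

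The response of RAL819 to heat shock was tested with each line as a block, which compares its 2 libraries and takes the spread from the other lines. In edgeR's quasi-likelihood test, 159 genes rose in RAL819, or 1.16% of those tested, and 78 fell, or 0.57%. Of these 237 genes, 232 also changed in the same direction in the other 9 lines together, where 2144 rose and 2517 fell. The other lines are 9 against 1, so the counts are not on a like footing. With library totals only as the scaling, 148 genes rose and 267 fell in RAL819, and the median of all genes was -0.15 (log2) in place of -0.01. With the length trend removed the split was 214 and 172.

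Chaperone genes led the rise. The list of heat shock chaperone genes also held Hsc70 genes, Hsp60A and the regulator Hsf. Of its 23 tested genes, 20 rose in RAL819 and none fell. Their median response was 4.28 (log2) against 4.41 in the other lines and -0.01 over all genes tested in RAL819. They made up 0.452% of the counts of the untreated library and 9.05% of the heat shock library, inside the ranges of the other lines (0.422% to 0.487% and 8.17% to 11.2%). Hsp68, an inducible member of the Hsp70 family, went from 69.4 to 9480 CPM, a response of 7.09 ± 0.33 (log2, SE, adjusted p 3.52e-08, edgeR), and the other lines went from 48.2 to 70 CPM to 6620 to 10400 CPM.

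The 3 small heat shock genes Hsp23, Hsp26 and Hsp27 rose by 7.07, 6.35 and 5.22 (log2), and DnaJ-1, the co-chaperone Hsp40, by 4.43. stv, a BAG-domain co-chaperone, rose by 4.02 and Hsp83, the Hsp90 of the fly, by 3.92. Adjusted p was at most 3.42e-07 in these 6 genes (edgeR). Co-chaperone and chaperonin genes named after their values were seen rose by less: Stip1 6.33-fold, Hsp110 4.59-fold, CCT3 3.58-fold and CCT8 3.34-fold. Of the endoplasmic reticulum genes, Hsc70-3, its Hsp70, rose 2.45-fold, PEK 2.17-fold and Xbp1 1.89-fold, with adjusted p of 0.00889, 0.00821 and 0.00937 (edgeR). Hsf itself had a response of 0.64 ± 0.18 and did not pass (adjusted p 0.102).

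The chromatin regulators E(z), trx and Kdm2 did not pass in RAL819. E(z), the methyltransferase of histone H3 lysine 27, had a response of -0.33 ± 0.19, trx, the methyltransferase of trithorax, 0.28 ± 0.34, and Kdm2, a demethylase, 0.90 ± 0.22 (log2, SE, adjusted p 0.448, 0.747 and 0.0668, edgeR). Their responses over the other 9 lines were -0.34, 0.43 and 0.85. lncRNA:roX1, part of the male dosage compensation complex, stood at 536 and 590 CPM, inside the range without heat shock (339 to 577 CPM) and above it with heat shock (280 to 406 CPM).

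The 6 Hsp70 copies, summed because they are near-identical, stood as a sum highest in RAL819 before heat shock and had the lowest response there. They went from 63.3 to 50640 CPM, and in the other lines from 22.4 to 44.3 CPM (median 31.2) to 43600 to 79230 CPM (median 44450). The untreated library of RAL819 was above all others, and its heat shock library was inside their range. The response was 9.64 ± 0.50 (log2, SE) against 10.57 ± 0.17, and 9.64 was the lowest of the 10 lines, the others being 9.97 to 11.21. The difference of -0.92 ± 0.37 did not pass (adjusted p 1, unadjusted p 0.0264, edgeR). Taken singly, Hsp70Ba, Hsp70Bb, Hsp70Bbb and Hsp70Bc went the same way, but Hsp70Aa and Hsp70Ab did not. Before heat shock Hsp70Aa and Hsp70Ab stood at 11.19 and 12.64 CPM in RAL819, and at 14.61 and 14.82 CPM in RAL93. Their responses were 10.1 and 10 (log2) in RAL819, and 9.55 and 9.57 in RAL93. Hsp27 showed the same arrangement as the Hsp70 sum, at 88.4 CPM without heat shock against 46.1 to 70.5 CPM and 3290 CPM with it against 2950 to 4040 CPM. Its difference in response of -0.73 did not pass (adjusted p 1, edgeR).

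**Figure D4:**
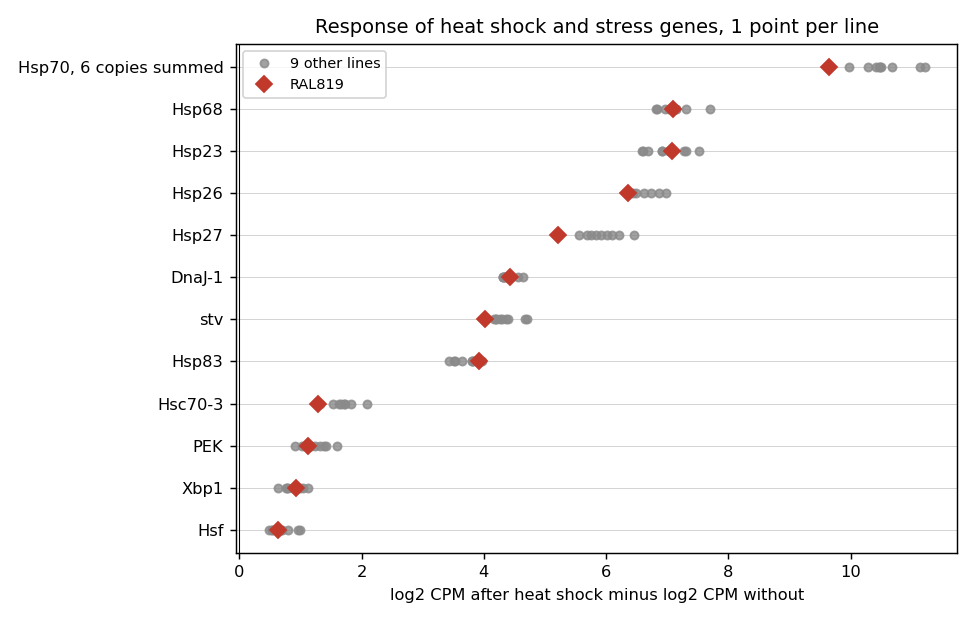
Response to heat shock, as log2 CPM after heat shock minus log2 CPM without (horizontal axis), of summed Hsp70 and 11 further genes (vertical axis) in RAL819 (red diamonds) and the 9 other lines (grey points). RAL819 lies lowest for Hsp70 (9.64), Hsp27 (5.22), stv (4.02) and, beside RAL335, Hsc70-3 (1.29), and among the other lines for the rest.

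Over the 329 genes that rose at least 2-fold in the other lines, 320 were higher after heat shock in RAL819, and 128 of them passed. Their mean response was 1.82 (log2) in RAL819 and 1.98 to 2.14 in the other lines, but those lines chose the genes. Over the 91 genes that fell at least 2-fold, 89 were lower in RAL819, with a mean of -1.20, and 18 passed. Named after their values were seen, repo, the transcription factor of glia, went from 17.3 to 3.86 CPM (other lines 10.8 to 17.7 CPM and 2.27 to 3.67 CPM), a 4.48-fold fall. odd, a zinc finger transcription factor, fell 2.90-fold and daw, a ligand of the activin pathway, 3.09-fold. Adjusted p in these 3 was 9e-05, 0.00093 and 0.00332 (edgeR).

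A difference in response between RAL819 and the other lines passed for 1 gene, 0.0073% of those tested. CG34136 (FBgn0083972, 2L, 21096922 to 21098932, plus strand) went from 14.8 to 3.67 CPM in RAL819. In the other lines it went from 2.67 to 5.15 CPM (median 3.9) to 4.95 to 9.75 CPM (median 6.56). RAL819 was above all others without heat shock and below all of them with it. The response was -2.01 ± 0.33 against 0.64 ± 0.11 (log2, SE), a difference of -2.66 with a 95% interval of -3.45 to -1.86 (adjusted p 0.0451, edgeR). The call was lost in 8 of the 9 fits that left out 1 other line. CG34136 lies wholly within another gene on the opposite strand.

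For the response difference, 382 genes had an unadjusted p under 0.05 (edgeR), or 2.79% of those tested, and 148 of them had the higher response in RAL819. This count is no more than such a threshold would pick out with no difference in any gene. The response in RAL819 lay outside that of every other line for 2522 of the 13690 genes tested, above for 1162 and below for 1360. Lying outside was therefore common. It was a condition for naming and is by itself no sign of a difference. Named by rule among the genes whose response in RAL819 lay outside that of every other line, 15 further genes did not pass, with adjusted p from 0.304 to 1 (edgeR). LpR2, a receptor that takes up lipid from lipophorin, went from 113 to 60 CPM in RAL819. It was at 113 to 163 CPM (median 142) and 194 to 318 CPM (median 235) in the others, a response of -0.91 against 0.80. Ku80, which joins broken DNA ends, went from 7.96 to 3.32 CPM in RAL819, while the other lines were at 5.74 to 19.3 CPM (median 14.5) and 4.24 to 15.7 CPM (median 13). Only the heat-shocked RAL819 library of Ku80 was below all others, and the response, -1.26 in RAL819, was -0.24 in the others.

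For CG7884, CG14275 and CG14160, the untreated RAL819 library was above every other line. CG7884 went from 7.91 to 2.77 CPM, and in the others from at most 2.19 CPM to at most 2.97 CPM. CG14275 went from 51.6 to 17.6 CPM, and in the others from at most 27 CPM to at most 24.2 CPM. CG14160 stood at 15 CPM without heat shock, above the other lines (2.47 to 8.9 CPM), and at 20.5 CPM with it, inside their range (14.9 to 39.9 CPM). It lies within dpr6, on the opposite strand, and rose by 2.11 (log2) in the other lines and by 0.45 in RAL819.

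Among the genes with the larger response in RAL819, CG31431 went from 15.4 to 67.1 CPM, while the other lines were at 9.57 to 15.1 CPM (median 12.1) and 10.3 to 29 CPM (median 14.2). Cib2, a calcium-binding protein gene, went from 1.33 to 5.27 CPM against at most 1.07 and 2.16 CPM in the others. In both, the RAL819 library was highest in each treatment, and the difference in response did not pass (adjusted p 1, edgeR). eIF3g2, a subunit gene of the translation initiation factor 3, went from 13.4 to 21.2 CPM with a response of 0.66 (log2) against 0.03 in the other lines. CG17928, lower in RAL819 in both treatments, rose 2.94-fold there and 1.21-fold in the others. Of the genes that changed in RAL819, 4 did not pass in the other lines: eIF3g2, CG31431, CG14275 and asRNA:CR45366, the last of which had 30 and 4 counts and was named after its values were seen.

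**Figure D5:**
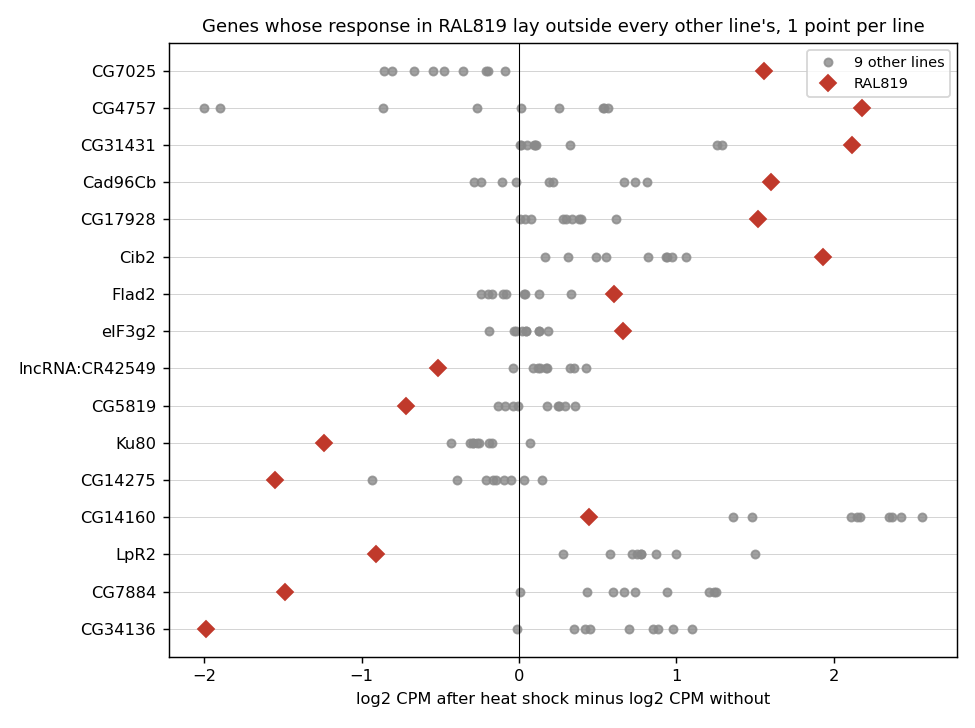
Response to heat shock (log2 CPM after minus before, horizontal axis) of 16 genes whose response in RAL819 (red diamonds) lay outside that of all 9 other lines (grey points), chosen by the smallest p of the difference. In all, 2522 of the 13690 genes tested had a response in RAL819 outside that of every other line. Only the difference of CG34136, at the bottom, passed the test.

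Antimicrobial peptide genes, products of the immune pathways of the fat body, had a low median response in RAL819, though not every member was low. Over the 15 tested, the median was -1.68 (log2) in RAL819 and -0.29 in the others, 13 of 15 differences in response were below 0, against 7314 of 13690 over all genes tested, and none rose or fell in RAL819 at an adjusted p under 0.05. AttC went from 23 to 3.75 CPM, against 1.15 to 23 CPM (median 5.22) and 0.924 to 32.3 CPM (median 5.08). Dro went from 6.46 to 0.195 CPM, against 0.507 to 7.24 CPM (median 1.5) and 0.361 to 7.34 CPM (median 1.67). The untreated RAL819 library was near the highest of the other lines for both genes. The heat-shocked one was below all of them for Dro, and inside their range, under the median, for AttC. The difference in response did not pass in either gene (adjusted p 1, unadjusted p 0.00927 and 0.00489, edgeR). AttC and Dro were named after their values were seen, and other peptide genes differed from them. Drs went from 121 to 125 CPM in RAL819, and Drsl5 had a response of -0.36 (log2) there against -0.42 in the other lines. DptA had a response of -2.46 in RAL819, inside the range of the other lines (-3.85 to 1.51). Each value rests on 1 pool of flies.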

How the data were processed

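RNA from whole male flies was sequenced with a stranded mRNA kit, 1 library per line and treatment. The authors deposited raw counts per gene, and these counts were used as they stand. Reads were aligned to BDGP6 with Bowtie2 2.2.9 and handled with SAMtools 1.12, per the submitters' processing notes, which also name DESeq2 1.28.1. The counting tool, its annotation and its use of strand are not given in the sources used here. The authors' own class comparisons were not used here. Gene positions came from the BDGP6.54 annotation, in which 17710 of 17807 identifiers matched and 97 did not.

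Counts were filtered by expression, leaving 13690 genes, scaled by TMM and tested with edgeR 4.0.16 (quasi-likelihood, R 4.3.3) and Benjamini-Hochberg adjustment at 0.05. The line difference had treatment as covariate over 20 libraries, and was repeated on counts summed per line. The heat shock response had the line as a block, since both libraries of a line share its genotype, with 8 residual degrees of freedom. limma 3.58.1 and DESeq2 1.42.0 were alternatives. On line sums, with 1 line against 9, p-values measure the spread between lines. Those over 20 libraries treat the 2 libraries of a line as independent and are too small. Those of the heat shock response measure the spread of the responses of the other lines. A count of 0 allows 3 counts, and such limits cover counting error only.

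Named line genes had a mean of at least 1 CPM, passed both fits and lay outside the range in both treatments, up to 12 per direction by size, 6 per direction by p and 3 per gene list. Named responses were the 8 per direction with the smallest p among those outside every other line. Heat shock, chromatin, roX1 and Yp1 genes were named whatever their values, and runs joined neighbours within 20000 bases. Members, lists and rules were chosen with earlier results of these data known. The scripts were tested on simulated data.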

Additional observations from a re-analysis of the deposited data

Results flagged for a closer look

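Over 78 groups of 9 or 10 lines, 1 line stood apart from the rest in 9, and about 1 in 20 such groups would be picked out by chance. The groups of single genes held only the 9 other lines, so RAL819 could not be picked out in them. In 6 of the 9 groups picked out, a line was low in a gene named for RAL819. Without heat shock they were Tdc2 in RAL359 (2.49 CPM), Nup205 in RAL409 (8.94 CPM) and CG15347 in RAL335 (41.5 CPM). With heat shock they were Crg-1 in RAL335 (1.32 CPM), CG15347 in RAL359 (35.4 CPM) and CG7214 in RAL359 (372 CPM). The response of CG14275 was lowest among the other lines in RAL359 (-0.932 log2), and that of trx was highest in RAL409 (1.45 log2). Among the groups that held all 10 lines, RAL819 stood apart in its mean response over the 329 genes that rose at least 2-fold in the other lines (1.82 log2), a set those other lines chose. The response of CG34136 differed between RAL819 and the other lines by -2.66 (log2, adjusted p 0.0451, edgeR).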

How the results depend on the processing

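The line difference of RAL819 passed 397 genes over 20 libraries, 25 with counts summed per line, 94 in limma-voom, 810 in DESeq2 (376 higher, 434 lower), 18 in libraries without heat shock alone and 13 in heat shock libraries alone. Leaving out 1 other line at a time gave 318 to 530. On line sums the range was 18 to 35, and 4 genes passed against the other detrimental lines alone, an alternative chosen after seeing the data. The heat shock response of RAL819 passed 237 genes, 103 with no replicate block (91 higher, 12 lower), 415 with library totals only and 386 with the length trend removed, and 198 to 351 when 1 other line was left out. The response difference passed 1 gene, 0 with no replicate block, 0 with RAL409 left out, 5 in DESeq2, and 0 to 3 when 1 other line was left out, the 3 being without RAL359. The response of lncRNA:roX1 turned to -0.0036 with library totals only. The cause of these shifts was not tested. With 1 library per treatment and line, RAL819 has no replicate of its own, and genes with few counts are limited by depth.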
